A study of Mus musculus with 5 samples.

Results

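The genes described here encode the cytosolic aminoacyl-tRNA synthetases and the enzymes that make serine, asparagine, proline and one-carbon units. They were taken by symbol from a table of counts per Ensembl gene ID, and all 33 named genes (19 synthetases and 14 enzymes) were found among its 56691 IDs. Each symbol had 1 ID, and all 33 passed the filter on low counts. The libraries hold RNA of natural killer (NK) cells from mouse spleen, in 2 groups: 3 libraries labelled Fli1 KO, after CRISPR knockout of the ETS transcription factor gene Fli1, and 2 labelled NTC, the control of the same CRISPR experiment. The labels give no strain, sex, age, culture condition or time after editing, and do not say whether the numbered replicates are separate animals. The p-values therefore measure only the spread between these libraries, which may be technical.

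Aminoacyl-tRNA synthetases load each tRNA with its amino acid, the step that fixes the genetic code during translation. Some of the cytosolic enzymes are held together in a large multi-synthetase complex and the rest work alone or as dimers, and mitochondria use a mostly separate set encoded by other nuclear genes. When amino acids run short, the kinase GCN2 slows translation while the transcription factor ATF4 is made, and ATF4 binds C/EBP-ATF response elements (CARE) in the genes of many synthetases, of asparagine synthetase and of the serine pathway. In activated lymphocytes the serine pathway feeds one-carbon units into nucleotide synthesis.

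Promoter sequences were searched for 2 short motifs, because ATF4 RNA differed between the groups and because Fli1 itself is an ETS factor. The RefSeq table (build GRCm38.p6, 250 bases before to 50 after each start site) held 26 of the 33 genes. Lars, Rars, Cars, Hars, Nars, Vars and Wars had no entry there. A CARE-like core, TGATGNAA on either strand, lay in 8 of 27 promoters of these genes (29.6%), against 3.97% of all 32851 promoters and 2.02% of 7393 promoters of genes well above background in these libraries. The genes were Aars, Asns, Gars, Got1, Iars, Pycr1, Tars and Yars. An ETS core, CCGGAAG on either strand, lay in 6 of 27 (22.2%; Farsa, Gars, Kars, Psat1, Sars and Shmt2), against 8.86% of all promoters and 21.4% of those of genes well above background. The 2 motifs do not overlap each other, and a match of letters does not show binding.

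The sequences below belong to the 4 genes with a match that had the smallest p in the comparison of the groups. They run 5′ to 3′ on the gene's own strand, with the motif in capitals. They show how short the CARE-like cores are and where they lie in these 4 genes. Bases -23, 8 and 4 from the RefSeq start site are the first base of the core in Asns (chr6:7693214-7693243, minus strand), Iars (chr13:49682126-49682155, plus strand) and Yars (chr4:129189895-129189924, plus strand). In genes not printed, cores began at base -15 in Tars, -102 in Got1, -103 in Pycr1, and at -112 and 10 in Aars. The log2 fold changes of Fli1 KO over NTC were -0.04, 0.05, -0.18 and 0.19 in these genes. In the printed Asns, Iars, Yars and Gars, picked by p, they were 0.83, 0.39, 0.38 and 0.40. Dars, at 0.50, had no match, and Cars, at 0.69, had no entry. Whether a core goes with a difference was not tested. For Gars (chr6:55037851-55038000, plus strand) the 150 bases before the start site are given, which hold the ETS core at base -126 and the CARE-like core at base -30.
Asns: tcccagccacaTGATGAAActtcccgcacg
Iars: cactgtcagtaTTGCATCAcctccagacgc
Yars: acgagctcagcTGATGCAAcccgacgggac
Gars: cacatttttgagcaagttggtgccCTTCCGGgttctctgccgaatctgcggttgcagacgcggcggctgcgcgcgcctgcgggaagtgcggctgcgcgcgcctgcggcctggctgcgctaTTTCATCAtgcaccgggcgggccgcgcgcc

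The libraries held 4718390 to 5643791 counts. All 12 NK cell markers examined (among them Ncr1, Klrb1c, Prf1 and Eomes) lay over 3 times background, the density of counts per kb of exon on olfactory and vomeronasal receptor genes. Of the markers of other cells, 0 of 5 for B cells, 0 of 5 for the red cell lineage, 1 of 6 for T cells (Trac), 1 of 7 for myeloid cells (Itgax, also on NK cells) and 1 of 4 for stroma and endothelium (Pecam1) did. Hba-a1 was at 0 in both NTC libraries. Fli1 RNA was present in every library (log2 fold change 0.25, edgeR adjusted p = 0.641), but reads summed over all its exons cannot show whether the gene was cut, and the direction of each difference rests on the labels. By a chi-square per gene over 28286 genes, the 2 NTC libraries differed more from each other than any other pair (10.8, against 2.14 to 8.28). By the correlation of log2 values they did not. It was 0.9696 for the NTC pair, but 0.965 for Fli1 KO 1 with NTC 2 and 0.9664 for Fli1 KO 3 with NTC 2.

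The series title places the study in proteostasis and nutrient stress, and the comparison asks whether these genes differ between NK cells labelled Fli1 KO and NTC. No gene of the 33 was called at an adjusted p under 0.05 with edgeR's quasi-likelihood test, nor with DESeq2 or limma-voom. The edgeR test called 0.546% of all 30580 tested genes and 1.99% of the 7599 genes over 3 times background. Of all tested genes, DESeq2 called 154 higher and 25 lower, and limma-voom called 145 higher and 29 lower. At an unadjusted p under 0.05 edgeR gave 9 of the 33 (27.3%), all with a positive log2 fold change. In either direction, the shares were 8.94% of all tested genes and 18.3% of those over 3 times background. With a positive log2 fold change alone they were 1599 of 30580 and 1171 of 7599 genes. The 9 of the 33 were Cars, Asns, Dars, Iars, Nars, Yars, Gars, Aldh18a1 and Mthfd1l. Their number depended on the fit. It was 3 with DESeq2, 3 with library size alone, 3 without Fli1 KO 1 and 4 without Fli1 KO 3. With limma-voom it was 9, and without Fli1 KO 2 it was 14. In a fit of only the genes over 3 times background it was 2 of the 27 fitted. In 4 of the 33 the Fli1 KO libraries lay above both NTC libraries, and in 0 below both. The corresponding shares were 11.9% above and 13.7% below among all tested genes, and 26.3% and 7.78% among those over 3 times background.

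The log2 fold change was positive for 26 of the 33 genes, with a median of 0.20 for the 19 synthetases and 0.16 for the 14 enzymes. The median was -0.02 over all tested genes and 0.11 over those over 3 times background, 70.6% of which were positive. All 19 synthetases and 8 of the 14 enzymes lay over 3 times background. Asns, Psph, Shmt1, Gpt2, Got1 and Pycr1 did not. Both medians turned on the NTC library used: without NTC 2 they were 0.06 and -0.01, and without NTC 1 they were 0.39 and 0.46, with 10 genes called higher (Cars, Dars, Iars, Gars, Sars, Asns, Aldh18a1, Psat1, Mthfd1l and Mthfd2). Calls rose over all genes as well, with 703 of 32877 genes called higher without NTC 1, against 140 of 30580 with all libraries. Without Fli1 KO 2, 2 genes (Cars and Dars) were called higher, among 219 of 29260 over all genes, and the medians were 0.32 and 0.24, with 0.18 for genes over 3 times background. Without Fli1 KO 1 the medians were 0.15 and 0.06, with 0.08 for genes over 3 times background. The median of genes over 3 times background was 0.05 without NTC 2 and 0.21 without NTC 1. Scaled by library size alone the medians of synthetases and enzymes were 0.07 and 0.02. With that scaling 20 of the 33 genes were positive, and the median was -0.14 over all genes and -0.02 over those over 3 times background. The genes that then turned negative, Lars, Hars, Phgdh, Shmt2, Got1 and Got2, all had log2 fold changes under 0.10 before.

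**Figure D1:**
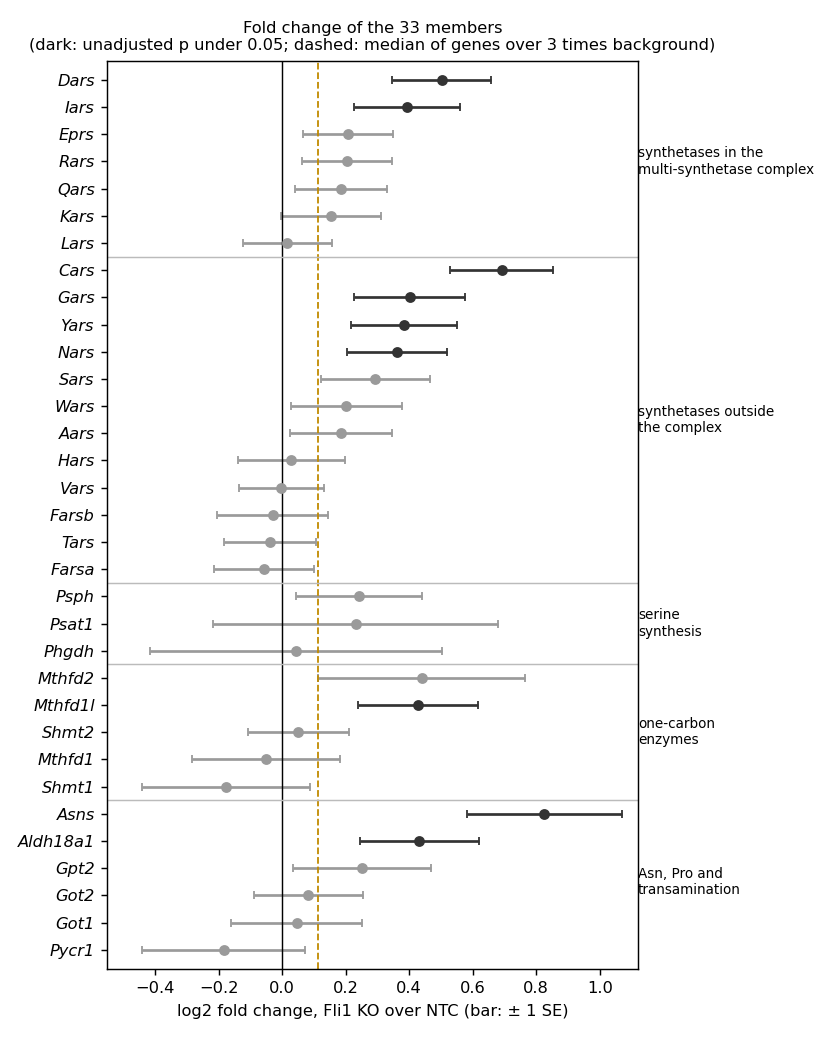
Log2 fold change of Fli1 KO over NTC (x axis, with bars of 1 SE from the edgeR fit) for each of the 33 genes (y axis), grouped by role, with dark points for an unadjusted p under 0.05. The 9 dark points all lie to the right of 0, led by Asns at 0.83 and Cars at 0.69, and the dashed line marks the median of 0.11 for genes over 3 times background.

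Cars, which encodes the enzyme that charges cysteine tRNA (ENSMUSG00000010755, GRCm38 chr7:143557230-143600090, minus strand), had the smallest p of the 33. It stood at 43.2, 34.6 and 40.1 in Fli1 KO 1 to 3 and at 26.9 and 21.5 in NTC 1 and NTC 2, in CPM (counts-per-million of the library total multiplied by its TMM factor). Every Fli1 KO library was above both NTC libraries. Its mean was 39.3 ± 4.34 CPM (SD, n = 3) with Fli1 KO, against 24.2 ± 3.79 CPM (SD, n = 2) with NTC. The fitted difference was 1.61-fold (log2 fold change 0.69, SE 0.16, edgeR adjusted p = 0.0581). The adjusted p moved across the threshold with small changes of the fit, from 4.02e-04 to 0.407 over 14 other settings, 7 of which called it. The log2 fold change was 0.55 to 0.89 when 1 library was left out. Cars lay only 3.21 times over background, and with that background subtracted the ratio of the means was 2.11.

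Among the 7 synthetases of the multi-synthetase complex all log2 fold changes were positive, from 0.02 for Lars to 0.50 for Dars, although Lars was at -0.11 when scaled by library size alone. Dars, the aspartyl-tRNA synthetase, was at 84.5, 61.2 and 80.2 CPM in Fli1 KO and at 58.8 and 47.2 CPM in NTC. The groups did not overlap, although Fli1 KO 2 lay only just above NTC 1 (0.50, SE 0.16, edgeR adjusted p = 0.242).
Iars, the isoleucyl-tRNA synthetase, was at 75.5, 57.4 and 86.4 CPM in Fli1 KO and at 62.9 and 47.8 CPM in NTC. Here Fli1 KO 2 lay below NTC 1, so the groups overlapped (0.39, SE 0.17, edgeR adjusted p = 0.469).
Eprs, which charges both glutamate and proline tRNAs with 1 fused protein, was at 168, 138 and 173 CPM in Fli1 KO and at 149 and 128 CPM in NTC. Qars, the glutaminyl-tRNA synthetase, was at 129, 105 and 128 CPM in Fli1 KO and at 118 and 93.2 CPM in NTC. In both genes the lowest library was NTC 2 and the next lowest Fli1 KO 2 (log2 fold changes 0.21 and 0.19, edgeR adjusted p = 0.724 and 0.765). Rars, Kars and Lars, for arginine, lysine and leucine, had log2 fold changes of 0.20, 0.15 and 0.02.

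Of the 12 synthetases outside the complex, 8 had a positive log2 fold change. Nars, the asparaginyl-tRNA synthetase, was at 92.0, 64.7 and 86.4 CPM in Fli1 KO and at 69.7 and 56.0 CPM in NTC (log2 fold change 0.36, SE 0.16, edgeR adjusted p = 0.491). Gars, the glycyl-tRNA synthetase of both cytosol and mitochondria, was at 93.6, 61.4 and 91.5 CPM in Fli1 KO and at 70.4 and 53.5 CPM in NTC (0.40, SE 0.18, adjusted p = 0.498). In Nars and Gars alike, Fli1 KO 2 lay between the NTC libraries.
Yars, the tyrosyl-tRNA synthetase, was at 53.7, 38.0 and 40.1 CPM in Fli1 KO and at 37.1 and 29.9 CPM in NTC. Its groups did not overlap, by a gap of less than 1 CPM (0.38, SE 0.17, edgeR adjusted p = 0.493).
Sars, for serine, was at 144, 95.8 and 121 CPM in Fli1 KO and at 114 and 81.9 CPM in NTC (0.29, edgeR adjusted p = 0.651). Aars, for alanine, was at 95.0, 66.7 and 92.1 CPM in Fli1 KO and at 84.1 and 64.1 CPM in NTC (0.19, adjusted p = 0.797). The 1326 exon bases (14.3%) that Aars shares with Exosc6 on the same strand leave its count uncertain.
Vars, for valine, had a log2 fold change of -0.0026, with 163, 140 and 147 CPM in Fli1 KO and 158 and 142 CPM in NTC. Its SE of 0.13 was the smallest of the 33. Farsa and Farsb, the alpha and beta subunits of the phenylalanyl-tRNA synthetase, were at -0.06 and -0.03, Tars, for threonine, at -0.04, Hars, for histidine, at 0.03 and Wars, for tryptophan, at 0.20, with overlapping groups in all 5. Farsb (9.47% of its exon bases) and Hars (7.97%) overlap a gene on the opposite strand, and the strand setting of the counts is not given.

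Per kb of exon the levels of the synthetases spanned 5.05 CPM per kb (Cars) to 26.7 CPM per kb (Vars), with Gars at 23.7, Sars at 21.7 and Hars at 19.1 CPM per kb. The 2 subunits of the phenylalanyl-tRNA synthetase, which assemble in equal numbers, lay close together, at 7.64 (Farsa) and 8.50 (Farsb) CPM per kb. The exon length counts every annotated exon of a gene, so that a gene with long rare exons, such as Eprs with 18102 bases, reads low on this scale (8.36 CPM per kb).

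Asns, which makes asparagine from aspartate and glutamine and is a textbook target of ATF4 (ENSMUSG00000029752, GRCm38 chr6:7675169-7693254, minus strand), had the largest log2 fold change of the 33. It stood at 12.3, 9.10 and 11.9 CPM in Fli1 KO and at 7.28 and 5.01 CPM in NTC. All 3 Fli1 KO libraries were above both NTC libraries, at counts of 24 to 61 reads per library. The mean with Fli1 KO was 11.1 ± 1.75 CPM (SD, n = 3), compared with 6.15 ± 1.60 CPM (SD, n = 2) with NTC. The fit gave 1.77-fold (0.83 on the log2 scale, SE 0.24, edgeR adjusted p = 0.192). The gene lay 2.12 times over background, and with background subtracted the ratio of the means was 3.77, so the size of the fold depends on how background is treated. That ratio rests on NTC 2, where little was left after subtraction (NTC 1 was then 26.1-fold over NTC 2). Without NTC 1, the higher of the NTC libraries, its adjusted p was 0.0226 (log2 fold change 1.15). Over 13 other settings the adjusted p ran up to 0.673.

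Aldh18a1, which encodes the first enzyme of proline synthesis from glutamate, was at 62.7, 38.7 and 51.0 CPM in Fli1 KO and at 43.5 and 31.3 CPM in NTC. Fli1 KO 2 lay between the NTC libraries (log2 fold change 0.43, SE 0.19, edgeR adjusted p = 0.50). Pycr1, the mitochondrial enzyme that completes proline, was the lowest of the 33 per kb (1.51 CPM per kb) and at 0.961 times background could not be told from background. Gpt2, a mitochondrial alanine transaminase, at 1.10 times background, could not either. The aspartate transaminases Got1 (cytosolic) and Got2 (mitochondrial) had log2 fold changes of 0.05 and 0.08 with overlapping groups.

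The serine pathway differed more between libraries of a group than between the groups. Phgdh, the enzyme that draws serine synthesis off glycolysis, was at 26.4, 11.8 and 23.0 CPM in Fli1 KO and at 26.2 and 12.5 CPM in NTC. It was low in Fli1 KO 2 and NTC 2 and about 2-fold higher in the other 3 libraries, with a group difference of 0.04 on the log2 scale (SE 0.46). Psat1, the next enzyme, was at 48.2, 23.4 and 40.7 CPM in Fli1 KO and at 42.0 and 20.9 CPM in NTC, low in the same libraries (0.23, SE 0.45, edgeR adjusted p = 0.937). Psph, the phosphatase of the last step, spread less, at 20.0, 17.5 and 13.7 CPM in Fli1 KO and 16.0 and 12.7 CPM in NTC. At 2.35 times background, and with 10.4% of its exon bases shared with Cct6a on the opposite strand, its level is less certain.

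The one-carbon enzymes split in the same way. Mthfd2, the mitochondrial folate enzyme of dividing cells, was at 25.8, 12.8 and 24.6 CPM in Fli1 KO and at 19.4 and 11.1 CPM in NTC, again lowest in NTC 2, then Fli1 KO 2, with a group difference of 0.44 on the log2 scale (SE 0.33, edgeR adjusted p = 0.765). Mthfd1, the cytosolic trifunctional enzyme, was at 38.1, 23.7 and 36.5 CPM in Fli1 KO and at 42.1 and 25.1 CPM in NTC (-0.05, SE 0.23). Mthfd1l, which releases formate from mitochondria, was at 82.5, 62.6 and 78.0 CPM in Fli1 KO and at 69.2 and 40.7 CPM in NTC. NTC 2 stood apart as the lowest, and Fli1 KO 2 lay below NTC 1 (0.43, SE 0.19, adjusted p = 0.516).
Of the serine hydroxymethyltransferases, which move the one-carbon unit from serine to folate, mitochondrial Shmt2 had a log2 fold change of 0.05 and cytosolic Shmt1 -0.18. Shmt1, at 1.83 times background, was at 16.0 CPM in NTC 1 and 7.73 CPM in NTC 2, a wider range than the 8.20 to 12.9 CPM of the Fli1 KO libraries.

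**Figure D2:**
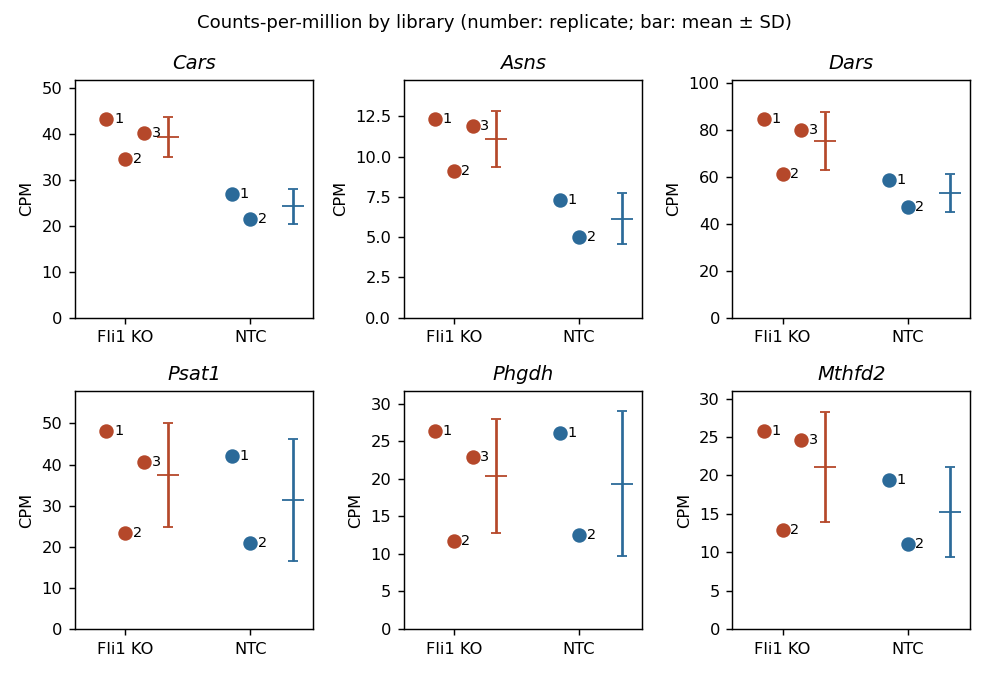
Counts-per-million (y axis, from 0) of 6 genes in each library, numbered by replicate, with the mean and SD of each group beside the points. Cars, Asns and Dars have no Fli1 KO point at or below an NTC point, while Psat1, Phgdh and Mthfd2 are low in replicate 2 of both groups (Psat1 23.4 and 20.9 CPM) with 1.75 to 2.25 times as much in replicate 1.

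The pattern of Phgdh and Psat1 ran through most of the 33 genes. In 22 of them (66.7%) the lowest pair of libraries was Fli1 KO 2 and NTC 2, as in 34.3% of the genes over 3 times background. Of the 33 genes, 32 were lower in NTC 2 than in NTC 1, by a median of 0.34 on the log2 scale, and Lars was the exception. In 24 of the 33 this gap between the NTC libraries was larger than the log2 fold change between the groups. The shares of other genes that match the counts of 32 and 24 were not taken. NTC 2 was the lowest library for 23 genes and Fli1 KO 2 for 9, and Fli1 KO 1 was the highest for 22. The same counts were 3695, 1627 and 3518 among the 7599 genes over 3 times background. The median deviation from each gene's own mean was 0.19, -0.17 and 0.19 for the synthetases in Fli1 KO 1 to 3 and 0.06 and -0.29 in NTC 1 and 2. For the enzymes it was 0.33, -0.20 and 0.23 in Fli1 KO and 0.11 and -0.41 in NTC. Genes over 3 times background had the same signs with smaller sizes, at 0.13, -0.05 and 0.07 in Fli1 KO and 0.01 and -0.14 in NTC.

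Other quantities moved with this pattern. The 12 NK markers summed to 13557, 9146 and 11745 CPM in Fli1 KO and to 9819 and 6627 CPM in NTC, lowest in NTC 2 and Fli1 KO 2. The sum was mostly Gzma, Gzmb, Prf1 and Il2rb, the granule proteins and a cytokine receptor chain, and the single markers did not all follow it: Fli1 KO 2 and NTC 2 were the lowest pair for 6 of the 12. Tbx21 (107 CPM) and Klrk1 (394 CPM) were highest in NTC 2, and Klrk1 stood at 323 to 327 CPM in the Fli1 KO libraries. Background density was 1.52, 1.70 and 1.48 CPM per kb in Fli1 KO and 1.39 and 1.78 CPM per kb in NTC, highest in the same libraries. Gm10800, the gene with the most counts in each library, took 15.4%, 16.4% and 13.8% of counts in Fli1 KO and 10.3% and 18.98% in NTC. With background subtracted, Psat1 was 2.58-fold higher in Fli1 KO 1 than in Fli1 KO 2, against 2.06-fold without subtraction. It was 2.71-fold higher in NTC 1 than in NTC 2, against 2.01-fold. Subtracting a background that is higher in the lower libraries always widens such a ratio, so these values cannot show its part. The part of background, of NK marker levels and of Gm10800 in the pattern was not tested. In bulk RNA, fewer cells of a type and less RNA per cell cannot be told apart.

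**Figure D3:**
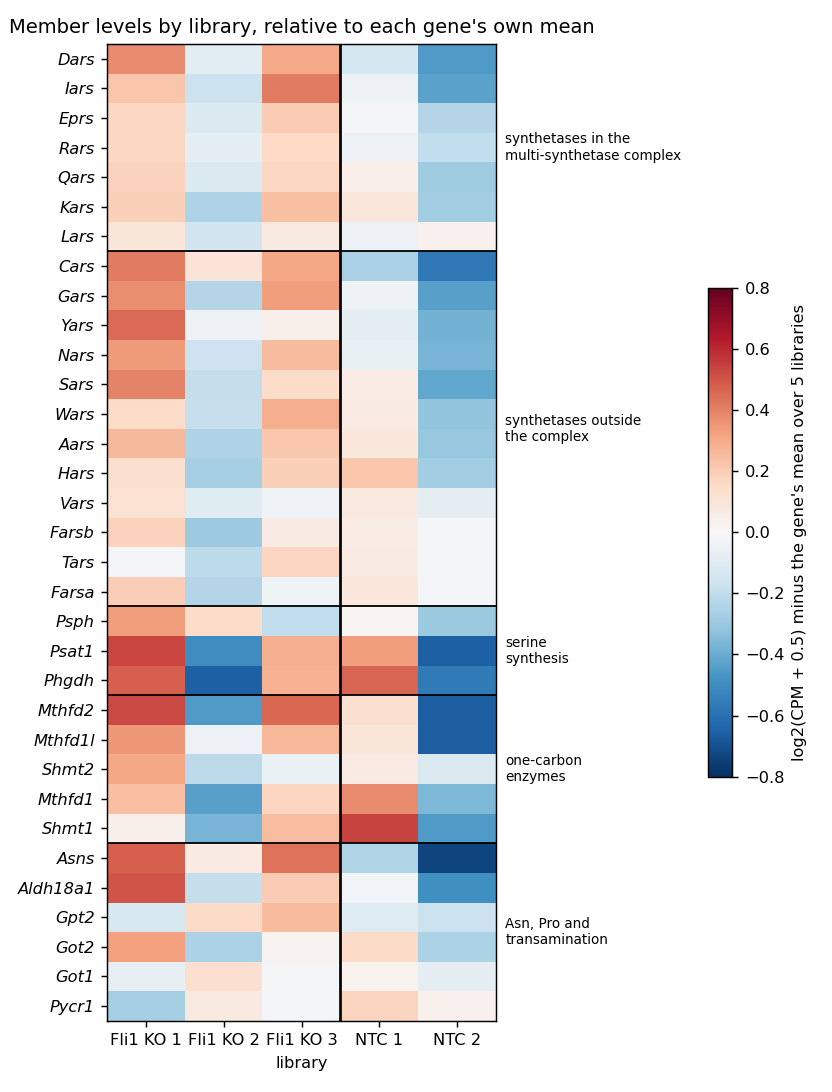
Heat map of the 33 genes (rows, grouped by role) in the 5 libraries (columns, Fli1 KO left of the line), coloured by log2(CPM + 0.5) minus the gene's own mean over the libraries. The columns of Fli1 KO 2 and NTC 2 are blue for most rows, 22 of which have their 2 lowest values there. Asns and Cars are instead blue only in NTC 1 and NTC 2, with deviations of 0.06 and 0.10 in Fli1 KO 2.

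The mitochondrial synthetases, encoded by separate nuclear genes, were counted in the same way. Of 17 genes, 7 had a positive and 10 a negative log2 fold change. Their median was -0.07, against -0.02 over all tested genes. None of the 17 was called by edgeR, and 1 had an unadjusted p under 0.05 (Hars2, for mitochondrial histidine, -0.41, adjusted p = 0.422). Hars2 was at 21.6, 21.2 and 27.4 CPM in Fli1 KO and at 30.2 and 32.0 CPM in NTC, with no overlap. It was 1 of 4 among the 17 with all Fli1 KO libraries below both NTC libraries, and in 1 they lay above both. The shares were 13.7% below and 11.9% above among all tested genes, and 7.78% and 26.3% among those over 3 times background. Hars2 shares exon bases with Hars on the opposite strand. In 1 of the 17 the lowest libraries were Fli1 KO 2 and NTC 2, and the median deviation was 0.02 in NTC 2 but -0.10 in Fli1 KO 2, the lowest library for this list and below the -0.05 of genes over 3 times background. Only 6 of the 17 lay over 3 times background, against all 19 cytosolic synthetases. Counts of the other mitochondrial genes may therefore hold a larger share of background.

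For 13 amino acids both a cytosolic and a mitochondrial gene were compared. The cytosolic gene had the more positive log2 fold change in 10 of the 13 pairs, and the higher level per kb in all 13. The widest gap was that of Cars (0.69) and Cars2 (-0.13), followed by Iars (0.39) and Iars2 (-0.21). Rars and Rars2 (0.20 and 0.35), Tars and Tars2 (-0.04 and 0.01), and Vars and Vars2 (-0.0026 and 0.01) went the other way. The difference between the compartments was not tested, and it was not separated from the difference in level.

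**Figure D4:**
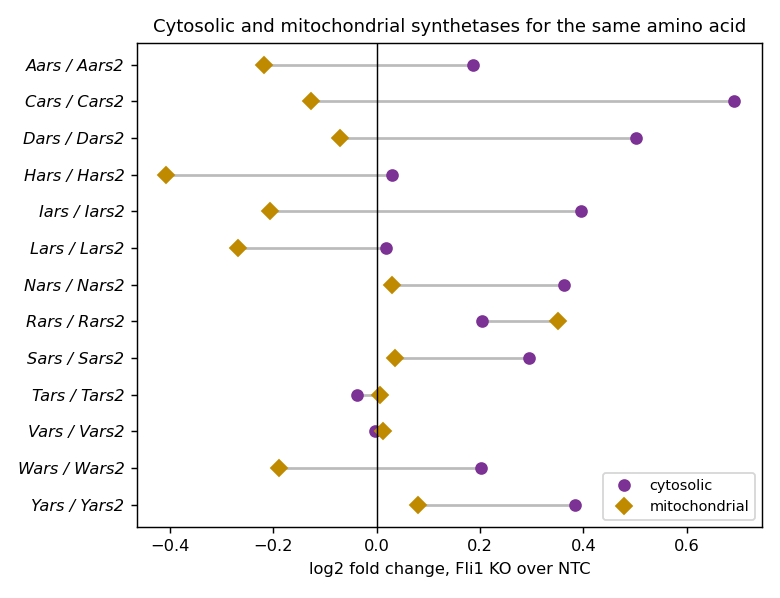
Log2 fold change of Fli1 KO over NTC (x axis) for the cytosolic gene (circle) and the mitochondrial gene (diamond) of 13 amino acids (y axis), each pair joined by a line. The circle is to the right of the diamond in 10 of the 13 pairs, most widely for Cars at 0.69 and Cars2 at -0.13.

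**Figure D5:**
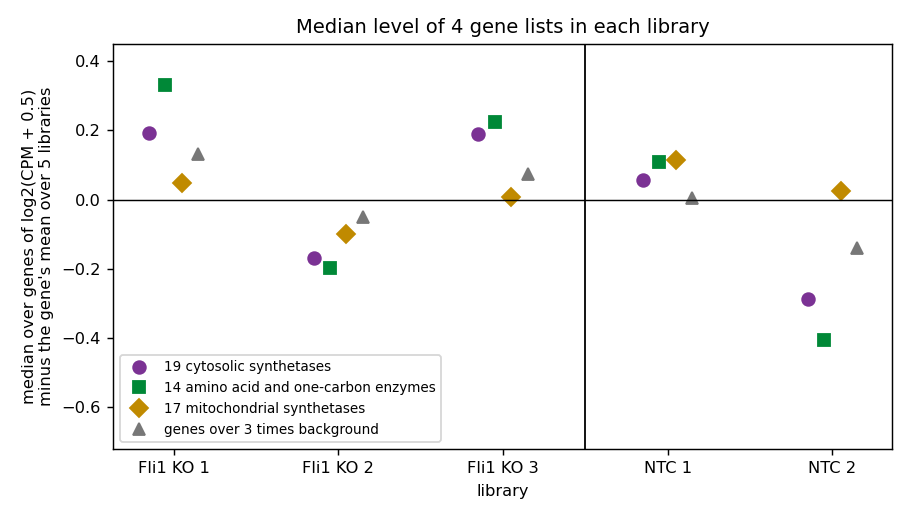
Median over the genes of a list of log2(CPM + 0.5) minus each gene's mean over the 5 libraries (y axis), for each library (x axis). The cytosolic synthetases and the enzymes are at -0.17 and -0.20 in Fli1 KO 2 and at -0.29 and -0.41 in NTC 2, below the genes over 3 times background, while the mitochondrial synthetases are at 0.02 in NTC 2 and at -0.10 in Fli1 KO 2.

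Of the remaining cytosolic synthetase and the scaffold of the complex, Mars (methionine), Aimp1, Aimp2 and Eef1e1 all had positive log2 fold changes and 0 of 4 were called (edgeR; 1 at an unadjusted p under 0.05). Aimp1, a scaffold protein of the complex, was at 76.3, 57.4 and 68.1 CPM in Fli1 KO and at 56.0 and 47.4 CPM in NTC. The groups did not overlap (0.38, edgeR adjusted p = 0.422).

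A list of 18 genes held ATF4, its kinases, partners and targets, and also Myc and Fli1, which are not amino acid response genes. Of these, 5 (Myc among them) were called higher and 0 lower. Called higher were 0.458% of all tested genes, and 130 of the 7599 genes over 3 times background. Atf4 rose 1.70-fold, and was at 199, 157 and 185 CPM in Fli1 KO and at 120 and 92.5 CPM in NTC (edgeR adjusted p = 0.0143). Myc, whose protein drives growth genes, the synthetases and serine enzymes among its textbook targets, rose 1.65-fold, from 127 and 103 CPM in NTC to 200, 160 and 212 CPM in Fli1 KO (adjusted p = 0.0225). In both genes NTC 2 was the lowest library and every Fli1 KO library was above both NTC libraries. Eif2ak3, a kinase that leads to ATF4, Cebpb, a partner of ATF4, and Ppp1r15a, a phosphatase subunit downstream of it, also rose (log2 fold changes 0.73, 1.13 and 1.73).
Leaving out 1 library ended the call of Atf4 and of Myc in 3 cases each. Without Fli1 KO 1, Fli1 KO 3 or NTC 2 the adjusted p was 0.229, 0.219 and 0.175 for Atf4 and 0.260, 0.370 and 0.191 for Myc. The log2 fold changes were then 0.70, 0.76 and 0.60 for Atf4 and 0.70, 0.66 and 0.59 for Myc, while 46, 57 and 111 genes of all were called higher, against 140. Without Fli1 KO 1 those of Eif2ak3 and Cebpb were 0.111 and 0.10, and without Fli1 KO 3 that of Eif2ak3 was 0.158. Myc was also not called with library size alone as the scaling (0.59, adjusted p = 0.0607).
Of the other genes of the list, Ddit3, Trib3 and Chac1 were not called. Ddit3, which encodes the stress factor CHOP, stood at -0.59 on the log2 scale, with all Fli1 KO libraries below both NTC libraries (edgeR adjusted p = 0.319). Trib3, a pseudokinase induced by ATF4, was at 0.06 and lay 1.60 times over background, and Chac1, a glutathione-degrading enzyme, was at 0.74 (adjusted p = 0.622) and 1.26 times over background.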

How the data were processed

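The authors' deposited table gives raw counts as whole numbers, 1 row for each Ensembl gene ID, with no scaling. It has 5 library columns and 0 columns of other samples. Per the submitters' processing notes, FastQC 0.12.0, Trimmomatic 0.39 and STAR 2.7.11 were used with mm10. Per the labels' protocols, libraries were made from total RNA with an enrichment kit. Which program counted reads, with which strand setting and annotation, and how it handled multi-mapping reads, no source used here says.

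IDs were matched to symbols in the supplied name table (52073 of 56691), and to GENCODE M21 on GRCm38 for positions and exon lengths. Synthetases go by their older symbols. The groups were compared by edgeR 4.0.16 in R 4.3.3 (quasi-likelihood test, robust, TMM factors, filterByExpr at 10 counts), fitted on all 30580 genes that passed, with Benjamini-Hochberg adjustment over all of them. A gene is called at an adjusted p under 0.05. Means and SDs are of CPM. Background was the count density on 1411 autosomal olfactory and vomeronasal receptor genes. Whether other genes carry the same background was not tested.

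Alternatives were other scalings, other filters, each library left out, DESeq2 1.42.0, limma-voom (limma 3.58.1) and a block for the replicate number. After seeing the data, 2 were added: a fit of only the genes over 3 times background, and values with background subtracted. The genes, lists and tests were chosen with earlier results of these data known. All 33 genes are named. Of other lists the text names called genes, or, in a list without a call, the gene of smallest p, besides Atf4, Ddit3, Trib3, Chac1, Myc and Fli1. Marker genes are named as examples. The gene this rule gives for the list of other amino acid and folate enzymes is not reported here.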

Additional observations from a re-analysis of the deposited data

How the results depend on the processing

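No gene of the 33 was called lower under any setting. The number called higher was 0 with edgeR as reported, with DESeq2's size factors, with library size alone, with DESeq2 and with limma-voom. It was 1 (Cars) with upper-quartile factors, with no filter, with a filter of 5 CPM in 2 libraries and in the fit of genes over 3 times background. It ranged from 0 to 10 when 1 library was left out, in fits that called 46 to 703 of all genes higher. The median log2 fold change ranged from 0.06 to 0.39 for the synthetases and from -0.01 to 0.46 for the enzymes over the left-out libraries. In the fit of genes over 3 times background it was 0.09 and 0.04, against -0.0044 for all genes of that fit. Of the enzymes, 6 were not fitted there. Where only 1 NTC library remains, it is assumed to vary like the Fli1 KO libraries, so a larger number of calls then is no measure of strength. With the replicate block 5 genes were called higher (Cars, Dars, Yars, Mthfd1l and Aldh18a1) and 728 of all genes, against 140, and Hars2 was called lower (-0.54, edgeR adjusted p = 0.0284). The labels do not say that a shared number marks a shared day or animal. Deviations from the group means correlated at 0.29 (number 1) and 0.43 (number 2) across 7599 genes, and Fli1 KO 3 with NTC 1, which share no number, at 0.20. With 2 NTC libraries the values for NTC 2 are those for NTC 1 with the sign turned, so they do not show pairing. Of the 33 genes, 26 were higher in Fli1 KO 1 than in NTC 1, 24 in Fli1 KO 2 than in NTC 2, and 19 in both. The share of other genes was not counted. The median deviation of genes over 3 times background differed in the same direction. It was 0.13 in Fli1 KO 1 against 0.01 in NTC 1, and -0.05 in Fli1 KO 2 against -0.14 in NTC 2. No called gene changed direction. Members near background (Asns at 24 to 61 counts) are limited by depth.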

Other observations

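Other enzymes of amino acid and folate metabolism lay in both directions. Of 28 genes, 14 had a positive and 14 a negative log2 fold change, with a median of 0.01 and 12 of the 28 over 3 times background. By edgeR 0 were called and 1 had an unadjusted p under 0.05.

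By the structure of the catalytic domain the synthetases form class I and class II. Of the 9 class I genes 8 had a positive log2 fold change (median 0.20), and of the 10 class II genes 7 (median 0.17).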
